A study of Homo sapiens with 8 samples.

Results

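The genes described here make, bind or carry the long sugar chains of the pericellular matrix: the hyaluronan synthases HAS2 and HAS3, the hyaluronan receptor CD44, the matrix proteoglycans VCAN (versican), DCN (decorin), BGN (biglycan) and LUM (lumican), and the cell surface heparan sulfate proteoglycans SDC1 (syndecan-1), SDC4 (syndecan-4) and GPC1 (glypican-1). They were picked by gene symbol from a list drawn up with earlier results of these data known, without a threshold on a measured value, and all 10 were found among the 21059 genes of the deposited table. RNA sequencing had been done on MDA-MB-157, an established human breast cancer line without estrogen receptor, after 48 hours of culture, with 4 libraries from cells at 5 mM glucose (the low glucose group) and 4 from cells at 25 mM (the high glucose group). The question of the comparison was what diabetes-like glucose does to the transcriptome of breast cancer cells. Per the labels, all 8 libraries came from cells kept in T25 flasks and from RNA isolated with the same kit, and per the methods of the study the glucose media held no serum. Both groups were cells of 1 line in monoculture, without stroma or vessels, and no library with an osmotic control such as mannitol was analysed here, so glucose and osmolarity cannot be told apart.

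Hyaluronan is an unsulfated chain that is built at the plasma membrane by the synthases from UDP-glucuronic acid and UDP-N-acetylglucosamine, both of which derive from glucose. It is extruded outside the cell, where CD44 holds it at the surface and versican binds it through a globular domain. Versican, decorin and biglycan carry chondroitin or dermatan sulfate, lumican carries keratan sulfate, and the small leucine-rich members among them bind fibrillar collagen. Syndecans span the membrane and glypicans are anchored to it by lipid, and the heparan sulfate of both binds growth factors. In breast tumors most decorin and lumican is known to come from stromal fibroblasts.

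The libraries held an estimated 9721637 to 12482546 reads, and 3 reads were worth 0.212 to 0.267 counts per 1000000 reads (CPM), a limit that covers counting error only. The labels do not say whether the replicates were separate experiments, so p-values measure the spread between these 8 libraries. High glucose replicate 1 stood apart: across 11223 genes, its difference from the other high glucose libraries went with transcript length at a Spearman rho of -0.65, against 0.25 to 0.47 for replicates 2 to 4 and -0.13 to 0.06 in low glucose (a description across genes, which are not independent replicates). The label of the line was checked against markers, whose counts of called genes (adjusted p under 0.05) stand beside 46.8% called of all genes tested and 62.1% of those with a mean of at least 1 CPM. ESR1, the estrogen receptor gene, lay at 0 to 0.170 CPM in every library, under the value of 3 reads. The other hormone receptor genes were led by ERBB2, which fell from 63.6 ± 1.29 to 39.2 ± 2.58 CPM (mean ± SD, n = 4 in each group here and below), and PGR at 4.76 ± 0.360 and 5.35 ± 0.597 CPM, and 1 of 4 genes of that list was called. Epithelial markers were led by KRT18 (233 ± 4.85 and 170.1 ± 18.1 CPM) and KRT8 (131 ± 5.95 and 88.3 ± 10.3 CPM), with CLDN3 at 0 in all libraries, and 3 of 9 rose and 3 fell. Leukocyte markers summed to 10.7 to 14.3 CPM in low and 13.3 to 17.97 CPM in high glucose, led by CD68 (11.1 ± 1.72 and 12.1 ± 1.72 CPM) and CD14 (1.25 ± 0.337 and 4.24 ± 1.33 CPM), with PTPRC at or below 0.178 CPM and 1 of 4 called. Endothelial markers summed to 3.65 to 5.42 CPM in all libraries, and 2 of 4 rose and 2 fell. KDR rose from 1.22 ± 0.255 to 2.27 ± 0.248 CPM and PECAM1 from between 0.911 and 1.24 to between 1.51 and 2.84 CPM. VWF, the highest of the 4 in low glucose, fell from 1.45 ± 0.0904 to 0.310 ± 0.417 CPM and CDH5 from 0.278 ± 0.130 to 0.0206 ± 0.0412 CPM, both named after their values were seen.

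The start regions of the genes with results on both sides of the comparison are shown so that the reader can see the sequence in front of each gene; no measurement of binding or chromatin was analysed here. RefSeq promoters (GRCh38.p14) were found for 7 of the 10 genes in 8 entries, and DCN, LUM and HAS2 had none. The windows hold the 250 bases before the annotated start, 5′ to 3′ on the strand of the gene. Capitals mark matches on either strand to an E-box (CACGTG), an AP-1 site (TGANTCA), a GC box (GGGCGG) or a TATA box (TATAAA). The printed windows are chr16:69107290-69107539 (+) for HAS3 (a start inside the annotated gene), chr20:45348425-45348674 (-) for SDC4, chr5:83471494-83471743 (+) for VCAN and chrX:153494730-153494979 (+) for BGN. HAS3 and SDC4 were higher in high glucose, and VCAN and BGN were lower.
HAS3: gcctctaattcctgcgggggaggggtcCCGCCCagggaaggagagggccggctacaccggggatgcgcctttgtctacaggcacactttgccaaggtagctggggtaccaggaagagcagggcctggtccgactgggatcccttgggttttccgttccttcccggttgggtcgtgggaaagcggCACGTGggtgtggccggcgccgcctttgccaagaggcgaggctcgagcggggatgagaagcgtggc
SDC4: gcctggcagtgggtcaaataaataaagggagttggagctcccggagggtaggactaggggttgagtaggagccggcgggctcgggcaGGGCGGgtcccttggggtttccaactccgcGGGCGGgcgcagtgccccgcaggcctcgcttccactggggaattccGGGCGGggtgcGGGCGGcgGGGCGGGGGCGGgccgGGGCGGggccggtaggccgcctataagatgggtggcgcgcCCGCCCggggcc
VCAN: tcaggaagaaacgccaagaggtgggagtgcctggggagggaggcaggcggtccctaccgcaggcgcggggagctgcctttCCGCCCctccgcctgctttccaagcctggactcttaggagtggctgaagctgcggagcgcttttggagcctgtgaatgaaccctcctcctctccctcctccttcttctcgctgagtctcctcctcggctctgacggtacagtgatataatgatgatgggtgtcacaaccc
BGN: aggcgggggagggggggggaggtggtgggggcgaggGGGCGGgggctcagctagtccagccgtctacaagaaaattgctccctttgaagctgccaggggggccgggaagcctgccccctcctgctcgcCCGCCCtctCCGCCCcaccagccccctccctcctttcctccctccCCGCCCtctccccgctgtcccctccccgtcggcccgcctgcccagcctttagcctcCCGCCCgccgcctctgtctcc

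The HAS3 window holds 1 E-box and 1 GC box, and it was the only one of the 8 entries with an E-box. The SDC4 window holds 8 GC boxes, of which a pair adjoins, the BGN window holds 5 and the VCAN window holds 1. The other entries hold 4 (GPC1, of which 3 overlap end to end), 2 (CD44) and 1 and 1 (SDC1) GC boxes, and no entry holds an AP-1 or TATA match. Among 35116 RefSeq promoters searched over the same length, 6.34% hold an E-box, 42.6% a GC box, 6.57% an AP-1 match and 10.7% a TATA match. GC boxes were found in front of genes that rose and of genes that fell. A match is a description of these letters and not of a bound site.

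Of the 10 genes, 10 were called by limma (adjusted p under 0.05), 5 higher and 5 lower, and in 10 the groups did not overlap. Changes of expression were widespread in this comparison, and these counts have to be read against that. Of all 21059 genes, 46.8% were called (22.0% higher and 24.8% lower), and of the 14372 genes with a mean of at least 1 CPM, which all 10 had, 62.1% were called (29.5% higher and 32.6% lower) and in 60.0% the groups did not overlap. A log2 change of at least 1 in either direction together with a call was seen in 3 of the 10 (HAS3, DCN and LUM) and in 6.90% of genes with a mean of at least 1 CPM. The median log2 change was -0.08 over the 10 genes, -0.04 over genes with a mean of at least 1 CPM and -0.01 over all genes. The median size of the change, without its sign, was 0.53 over the 10 genes and 0.36 over genes with a mean of at least 1 CPM. LUM, BGN and DCN ranked 57, 299 and 381 by p among all genes, while the ranks of the others ran from 3456 (SDC4) to 8423 (GPC1).

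**Figure D1:**
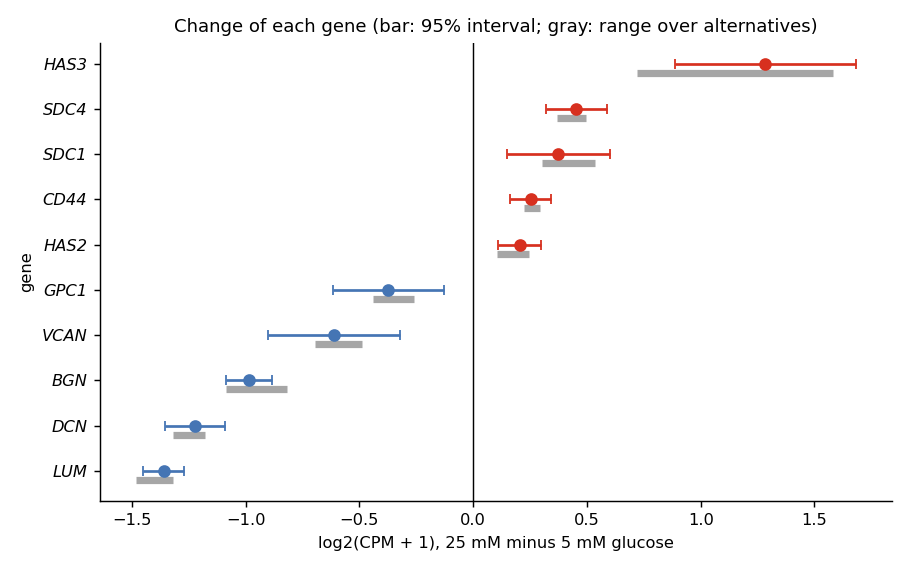
Log2 change of the 10 genes from low to high glucose on the log2(CPM + 1) scale, with the 95% confidence interval of the limma fit as a bar and the range over the processing alternatives in gray. The intervals lie above 0 for HAS2, HAS3, CD44, SDC1 and SDC4 and below 0 for VCAN, DCN, BGN, LUM and GPC1, from -1.36 for LUM to 1.28 for HAS3.

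Hyaluronan synthases were higher in high glucose, by a small step for HAS2 and by a large one for the scarce HAS3. HAS2 (ENSG00000170961.7, chr8:121612116-121641440), the synthase known for long chains in mesenchymal cells, was measured at 34.3, 32.8, 32.5 and 31.4 CPM in low glucose replicates 1 to 4 and at 38.5, 35.7, 37.7 and 39.8 CPM in high glucose replicates 1 to 4. The lowest high glucose library lay above the highest low glucose library, so the groups did not overlap. The mean rose from 32.7 ± 1.18 to 37.9 ± 1.70 CPM, a 1.16-fold difference, and the log2 change was 0.21 (SE 0.04, limma adjusted p = 0.00462). Without the trend with GC content, the change of HAS2 was 0.11 and was not called (adjusted p = 0.0981).

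HAS3 (ENSG00000103044.11, chr16:69083484-69118719), an enzyme of the same family, had the lowest level of the genes described, also per length of transcript. It was measured at 2.92, 1.82, 3.14 and 1.68 CPM in low glucose and at 6.85, 8.21, 6.28 and 7.20 CPM in high glucose. Every high glucose library was above every low glucose library, although each value rested on only 22 to 103 reads. The mean rose 2.99-fold, from 2.39 ± 0.748 to 7.13 ± 0.810 CPM. On the log2(CPM + 1) scale, which understates changes of low genes, the change was 1.28 (SE 0.17, 95% confidence interval 0.88 to 1.68, limma adjusted p = 0.000695), and it was 1.58 with a pseudocount of 0.1 and 0.72 with one of 5. Exon bases that overlap genes on the opposite strand made up 5.92% of the HAS2 and 7.02% of the HAS3 exons, and since use of strand in the counting is not given in the sources used here, reads from these stretches cannot be told apart. The antisense gene HAS2-AS1 itself lay at 0.0797 to 1.04 CPM. The genes opposite HAS3 are CHTF8 and DERPC, whose levels are not given here, so this limit stays open for HAS3.

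The shift between the synthases was tested within libraries, where scaling all but cancels. HAS3 minus HAS2 on the log2(CPM + 1) scale rose from -3.34 ± 0.293 to -2.26 ± 0.183, a difference of 1.08 (exact 2-sided permutation p = 0.0286, which is the smallest p that 70 assignments allow, and 0.0476 when adjusted over 5 ratios). In CPM the ratio of HAS3 to HAS2 was 0.0534 to 0.0966 in low and 0.167 to 0.230 in high glucose. Without low glucose replicate 1 the difference was 1.14 and the adjusted exact p was 0.0714. Ratios that share the smallest exact p lower each other's adjusted p, and BGN minus DCN then no longer shared it. GPC1 minus SDC1, described below, also shares it and so lowers the adjusted p of HAS3 minus HAS2, although its own p was fixed in advance.

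CD44 (ENSG00000026508.18, chr11:35139171-35232402), the main surface receptor for hyaluronan, was modestly higher in high glucose. It was measured at 398, 393, 392 and 392 CPM in low glucose and at 446, 453, 483 and 497 CPM in high glucose. The low glucose libraries were close together, and all high glucose libraries lay above them with a wider spread. The mean rose 1.19-fold, from 394 ± 3.08 to 469 ± 24.3 CPM (log2 change 0.25, SE 0.04, limma adjusted p = 0.00131). The values are per gene, so standard and variant forms of CD44 were not separated. The splicing regulators of its variant exons, ESRP1 and ESRP2, reached at most 1.07 CPM in any library.

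Matrix proteoglycans were lower in high glucose in all 4 cases, and lumican changed most. LUM (ENSG00000139329.5, chr12:91102629-91111494), a keratan sulfate proteoglycan of collagen fibrils, was measured at 919, 907, 909 and 870.4 CPM in low glucose and at 373, 341, 336 and 353 CPM in high glucose. No high glucose library came near the low glucose range. The mean fell from 901 ± 21.3 to 351 ± 16.3 CPM, 2.57-fold lower (log2 change -1.36, SE 0.04, 95% confidence interval -1.45 to -1.27, limma adjusted p = 1.23e-06), and LUM ranked 57 of 21059 genes by p.

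DCN (ENSG00000011465.17, chr12:91140484-91182817), a dermatan sulfate proteoglycan that binds collagen and TGF-beta, lies next to LUM with a gap of 28989 bases on the same strand. It was measured at 313, 299, 305 and 309 CPM in low glucose and at 146, 128, 129 and 120.2 CPM in high glucose. The groups were again far apart. The mean fell from 306 ± 5.91 to 131 ± 10.8 CPM, 2.34-fold lower (log2 change -1.22, SE 0.06, limma adjusted p = 5.37e-06). The other genes of the same cluster, KERA and EPYC, were not analysed here.

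BGN (ENSG00000182492.16, chrX:153494980-153509546), the close relative of decorin, was measured at 323, 343, 337 and 349 CPM in low glucose and at 178, 170.1, 174 and 158 CPM in high glucose. Its groups did not overlap either. The mean fell from 338 ± 11.01 to 170.2 ± 8.67 CPM, 1.99-fold lower (log2 change -0.99, SE 0.04, limma adjusted p = 4.43e-06). Of the sequence of BGN, 2.37% of 31-base words were shared with other genes, against at most 0.428% for the others.

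VCAN (ENSG00000038427.16, chr5:83471744-83582302), the large chondroitin sulfate proteoglycan that binds hyaluronan, was measured at 288, 282, 299 and 294 CPM in low glucose and at 146, 195, 203 and 223 CPM in high glucose. High glucose replicate 1 was the lowest, and the groups did not overlap. The mean fell from 291 ± 7.59 to 192 ± 32.7 CPM, 1.51-fold lower (log2 change -0.61, SE 0.12, limma adjusted p = 0.00520). VCAN has the longest transcript of the genes described (12345 bases), and the library that was lowest is the one whose values went with transcript length. Without that library the change was -0.49 (adjusted p = 3.76e-04), and with the length trend removed it was -0.59.

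Of 10 markers of mesenchymal cells or fibroblasts, 7 fell and 1 rose, where 32.6% of genes with a mean of at least 1 CPM were called lower and 29.5% higher. Their summed level was 28238 to 29094 CPM in low and 12718 to 13045 CPM in high glucose. The list was led by COL3A1, a fibrillar collagen chain, at 17321 ± 289 and 5681 ± 165 CPM, and by VIM (vimentin) at 4091 ± 28.5 and 2967 ± 210.3 CPM, while the fibroblast surface marker THY1 was at or below 0.166 CPM in all libraries. Their part in the result was not tested. All libraries came from 1 line in monoculture, and in its bulk RNA fewer expressing cells and less RNA per cell cannot be told apart.

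**Figure D2:**
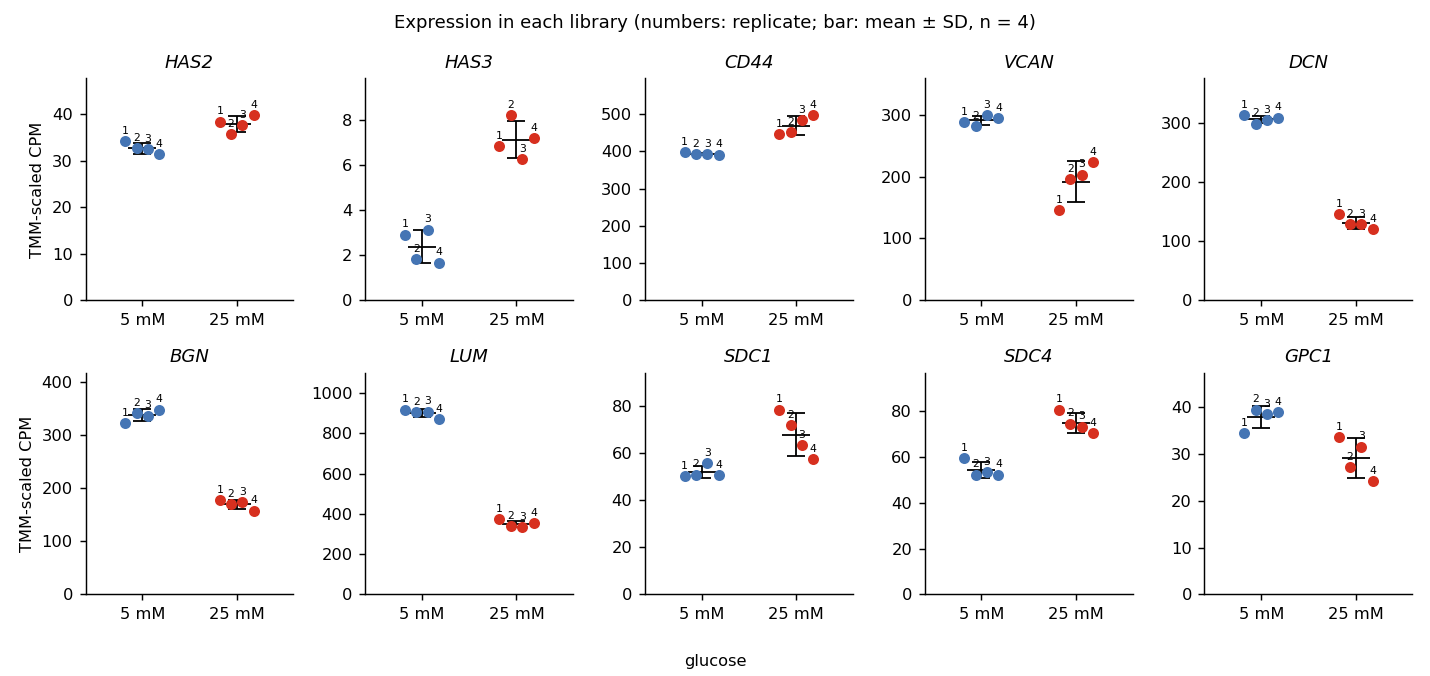
Expression of the 10 genes in each library, with CPM on a separate axis for each gene, low and high glucose on the horizontal axis, 1 point per library and the mean with its SD. The high glucose points lie above the low glucose points for HAS2, HAS3, CD44, SDC1 and SDC4 and below them for VCAN, DCN, BGN, LUM and GPC1, without overlap in any of the 10.

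In these libraries the fall was not equal among the small leucine-rich proteoglycans. BGN minus DCN rose from 0.14 ± 0.0665 to 0.38 ± 0.0626 on the log2(CPM + 1) scale, so that biglycan fell less than decorin in these libraries. The difference was 0.24 (exact permutation p = 0.0286, adjusted over 5 ratios 0.0476). That adjusted p was lowered by GPC1 minus SDC1, which shares the smallest exact p and whose p was fixed in advance. Passing the threshold is therefore weak support. Without low glucose replicate 1 the difference was 0.21 (adjusted exact p = 0.0952), and with the length trend removed 0.30 (0.143). The CPM ratio of BGN to DCN was 1.03 to 1.15 in low and 1.22 to 1.35 in high glucose. LUM minus DCN went from 1.55 ± 0.0455 to 1.42 ± 0.0890, a difference of -0.14 that was not past the threshold (exact permutation p = 0.0571, adjusted 0.0714), although it was without high glucose replicate 4 (-0.18, adjusted exact p = 0.0357). Whether the neighbors LUM and DCN differed in their response was thus not resolved with 4 libraries a group.

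Cell surface heparan sulfate proteoglycans split: both syndecans were higher and the glypican was lower in high glucose. SDC1 (ENSG00000115884.11, chr2:20200797-20225475), the syndecan of epithelial and plasma cells, was measured at 50.1, 50.9, 55.6 and 50.6 CPM in low glucose and at 78.4, 72.0, 63.4 and 57.5 CPM in high glucose. The groups did not overlap, but the lowest high glucose library was close to the highest low glucose library. The mean rose 1.31-fold, from 51.8 ± 2.59 to 67.8 ± 9.23 CPM (log2 change 0.37, SE 0.10, limma adjusted p = 0.0155), and without high glucose replicate 1, the highest library, the change was 0.30.

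SDC4 (ENSG00000124145.6, chr20:45325288-45348424), the broadly expressed syndecan of focal adhesions, was measured at 59.3, 52.2, 53.3 and 52.2 CPM in low glucose and at 80.5, 74.5, 73.1 and 70.1 CPM in high glucose. All high glucose libraries were above the low glucose range. The mean rose 1.37-fold, from 54.2 ± 3.45 to 74.5 ± 4.38 CPM (log2 change 0.45, SE 0.06, limma adjusted p = 0.000547). SDC4 minus SDC1 was 0.06 ± 0.127 in low and 0.14 ± 0.119 in high glucose on the log2(CPM + 1) scale, and the difference of 0.08 was not past the threshold (exact permutation p = 0.371, adjusted 0.371).

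GPC1 (ENSG00000063660.9, chr2:240435663-240468076), a lipid-anchored heparan sulfate proteoglycan and growth factor coreceptor, was measured at 34.4, 39.5, 38.5 and 39.0 CPM in low glucose and at 33.6, 27.3, 31.6 and 24.3 CPM in high glucose. The highest high glucose library lay just below the lowest low glucose library. The mean fell from 37.8 ± 2.32 to 29.2 ± 4.21 CPM, 1.30-fold lower (log2 change -0.37, SE 0.10, limma adjusted p = 0.0218). It had the largest adjusted p of the 10 genes, which became 0.0578, 0.0542 and 0.0563 without low glucose replicates 2, 3 and 4 and 0.0584 without high glucose replicate 2, with changes of -0.36 to -0.34. Set against SDC1 within libraries, GPC1 moved the other way: GPC1 minus SDC1 fell from -0.44 ± 0.0942 to -1.19 ± 0.158, a difference of -0.75 (exact permutation p = 0.0286, adjusted 0.0476), and the CPM ratio went from 0.687 to 0.777 in low to 0.379 to 0.498 in high glucose. Every high glucose library was already lower in GPC1 and higher in SDC1 than every low glucose library. The groups of this difference therefore had to separate, and its exact p was bound to be the smallest possible. It adds no support beyond the changes of the 2 genes. Without low glucose replicate 1 the difference was -0.78 (adjusted exact p = 0.0714).

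**Figure D3:**
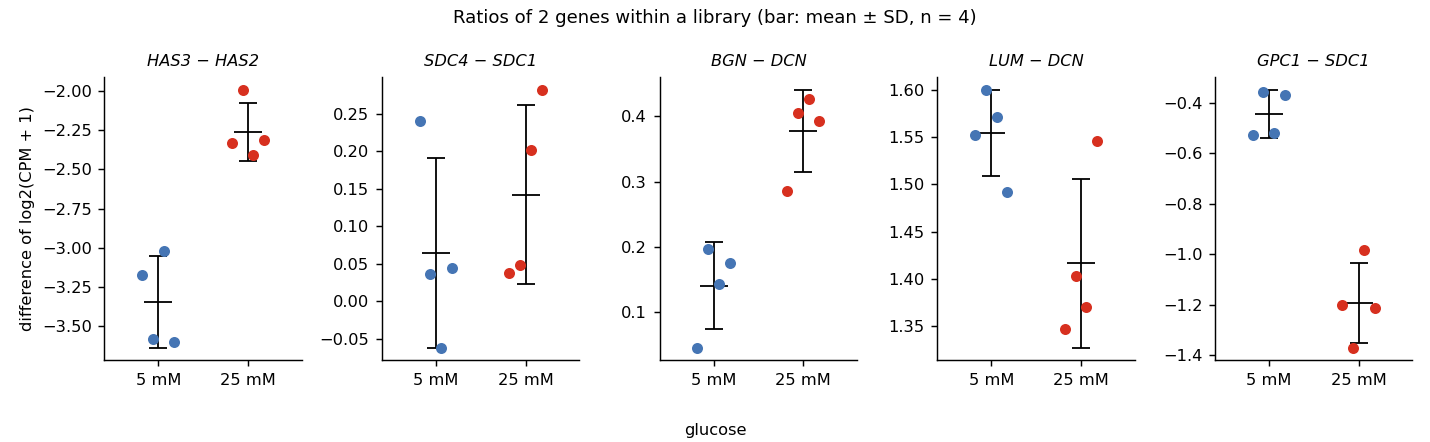
Differences between 2 genes within each library on the log2(CPM + 1) scale for the 5 ratios tested, with 1 point per library by glucose group and the group mean with its SD. HAS3 minus HAS2 and BGN minus DCN lie higher in high glucose and GPC1 minus SDC1 lower, whereas the groups overlap for SDC4 minus SDC1 and LUM minus DCN.

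To compare levels between genes, CPM was divided by the length of the canonical transcript of the gene in kilobases. The order, sums and shares on this scale hold for these lengths only, such as 6850 bases for DCN, 2353 for BGN and 2671 for LUM. Which transcript forms the cells used was not analysed here, and other lengths would change the order. In low glucose, lumican was the most abundant at 337 ± 7.98 CPM per kilobase, followed by BGN (144 ± 4.68), CD44 (72.5 ± 0.568), DCN (44.7 ± 0.863), VCAN (23.5 ± 0.615), SDC4 (20.8 ± 1.32), SDC1 (16.4 ± 0.817), GPC1 (10.2 ± 0.623), HAS2 (7.72 ± 0.279) and HAS3 (0.570 ± 0.178). On these lengths, no neighbors in this order overlapped between libraries. In high glucose lumican was still first at 131 ± 6.11 CPM per kilobase, but CD44 at 86.4 ± 4.47 stood above BGN at 72.3 ± 3.69, and both syndecans (SDC4 28.5 ± 1.68 and SDC1 21.4 ± 2.92) had means above DCN (19.1 ± 1.57) and VCAN (15.6 ± 2.65). HAS2 (8.94 ± 0.401), GPC1 (7.85 ± 1.13) and HAS3 (1.70 ± 0.193) came last. There SDC1 and DCN, DCN and VCAN, and HAS2 and GPC1 overlapped between libraries, so that their order was not resolved.

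Summed by role on the same scale, the 4 matrix proteoglycans went from 549 ± 4.32 to 238 ± 6.75 CPM per kilobase, and their share of the sum over all 10 genes went from 80.9% to 81.3% in low to 60.2% to 61.2% in high glucose. LUM alone held 48.7% to 50.6% of that sum in low and 32.2% to 34.4% in high glucose. CD44 held 10.6% to 10.8% and 20.2% to 23.5%, the 3 heparan sulfate proteoglycans 6.87% to 7.09% and 13.2% to 15.9%, and the synthases 1.17% to 1.29% and 2.64% to 2.85%. The sum over all 10 genes was 677 ± 5.48 CPM per kilobase in low and 393 ± 8.62 in high glucose. Shares move together by construction, and no test was made on them. The sum of the synthases was 8.29 ± 0.412 and 10.6 ± 0.340 CPM per kilobase. That of SDC1, SDC4 and GPC1 was 47.3 ± 0.906 and 57.8 ± 5.43 CPM per kilobase. SDC2, which fell from a higher CPM than any of them, is not in this sum.

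**Figure D4:**
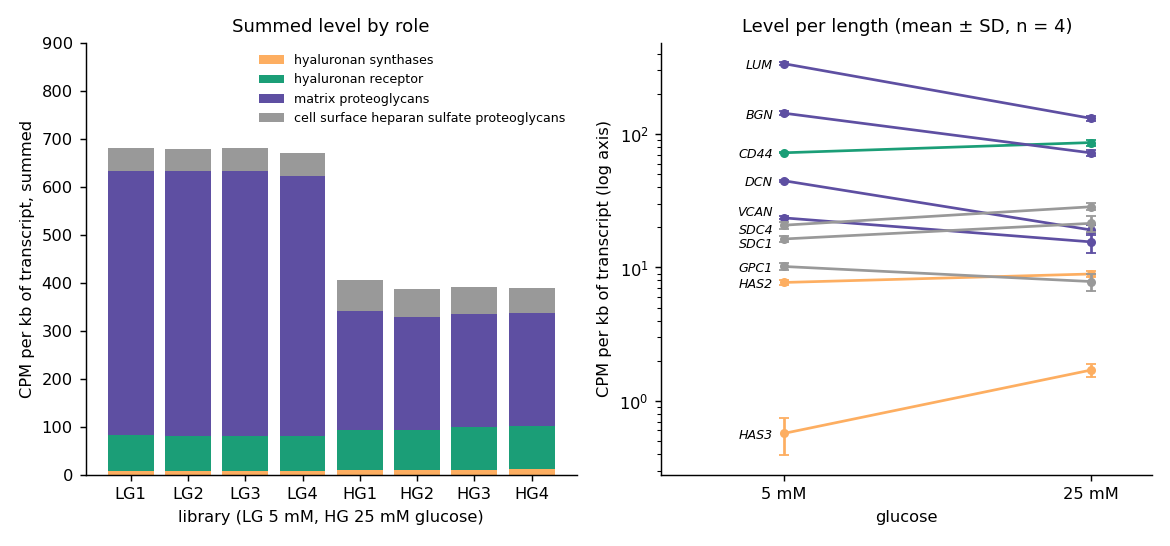
Left, CPM per kilobase of transcript summed by role in each library (LG, low glucose; HG, high glucose); right, the level of each gene on a log axis, mean ± SD of 4 libraries, by glucose. The bars sum to 677 on average in low and 393 in high glucose. LUM is highest and HAS3 lowest in both groups, and CD44 stands below BGN in low glucose and above it in high glucose.

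The other genes of these pathways were taken from 13 lists with 134 genes in the table, of which 85 (63.4%) were called, 33 higher and 52 lower, where 46.8% of all genes and 62.1% of genes with a mean of at least 1 CPM were called. In the list of hyaluronan synthesis and precursor supply 1 of 5 genes was called and the median log2 change was -0.06. The count and median include HAS2-AS1 and UXS1, which do not supply precursors. UAP1, which makes UDP-N-acetylglucosamine, rose from 42.5 ± 1.99 to 85.6 ± 6.15 CPM (log2 change 0.99, limma adjusted p = 1.41e-05). UGP2, which makes UDP-glucose, was measured at 107 ± 3.57 and 111 ± 4.75 CPM (adjusted p = 0.316), and UXS1, which turns UDP-glucuronic acid into UDP-xylose, at 42.1 ± 1.77 and 39.4 ± 2.55 CPM (adjusted p = 0.204). UGDH, which makes UDP-glucuronic acid and is named here after its values were seen, was measured at 68.7 ± 3.71 and 66.0 ± 2.44 CPM (adjusted p = 0.350).

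Of the genes that break down hyaluronan, 4 of 9 fell and 1 rose, with a median log2 change of -0.30. CEMIP, a hyaluronan-binding protein needed for its depolymerization, fell from 14.03 ± 1.23 to 7.06 ± 0.770 CPM (log2 change -0.90), and the lysosomal GUSB fell from 85.9 ± 3.77 to 59.6 ± 4.44 CPM. Of the genes that bind or crosslink hyaluronan, 5 of 9 rose and 2 fell, with a median log2 change of 0.34. PTX3, a pentraxin of the hyaluronan-rich matrix, rose from 104 ± 2.21 to 203 ± 14.3 CPM (log2 change 0.96, limma adjusted p = 8.57e-06), and HMMR, a hyaluronan receptor that also acts at the mitotic spindle, rose from 31.3 ± 3.51 to 48.8 ± 2.11 CPM. TNFAIP6, which transfers heavy chains onto hyaluronan, rose from 8.99 ± 0.402 to 12.6 ± 0.786 CPM.

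Of the genes that link, splice or engage CD44, 3 of 8 rose and 1 fell, with a median log2 change of 0.09. The actin linkers moved in opposite directions: MSN (moesin) fell from 282 ± 4.85 to 191 ± 11.5 CPM (log2 change -0.56), while RDX (radixin) rose from 86.4 ± 2.15 to 106 ± 4.30 CPM (log2 change 0.29). NF2 (merlin), their growth-restraining relative, rose from 61.4 ± 0.949 to 74.6 ± 2.15 CPM (log2 change 0.28).

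The other core proteins that were called were lower, with 1 exception in the heparan sulfate class. Of all genes tested 46.8% were called, 24.8% lower and 22.0% higher, so 4 of 9 called in a list is near the share of all genes. Among other chondroitin sulfate core proteins 4 of 9 fell and none rose (median log2 change -0.24), including BCAN (brevican), which binds hyaluronan as versican does, from 6.65 ± 0.501 to 1.77 ± 0.223 CPM, and NRP1, a coreceptor for VEGF and semaphorins, from 152 ± 3.73 to 111 ± 5.65 CPM. CSPG5 was measured at 1.92 ± 0.574 and 3.03 ± 0.738 CPM (log2 change 0.47, limma adjusted p = 0.0799). Among other small leucine-rich proteins 4 of 9 fell and none rose (median -0.50), with TSKU from 19.2 ± 1.17 to 13.2 ± 0.888 CPM, PODNL1 from 4.81 ± 0.679 to 1.93 ± 0.735 CPM and ECM2 from 2.85 ± 0.678 to 0.794 ± 0.345 CPM.

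Of the other heparan sulfate core proteins, 7 of 11 fell and 1 rose (median -0.32), whereas SDC1 and SDC4, which are not counted in that list, rose. SDC2, a syndecan of mesenchymal cells, fell from 1161 ± 15.8 to 833 ± 55.4 CPM (log2 change -0.48, limma adjusted p = 2.14e-04), GPC6 fell from 25.7 ± 0.219 to 12.6 ± 1.203 CPM, and COL18A1, a basement membrane collagen that carries heparan sulfate, fell from 249 ± 17.4 to 127 ± 12.7 CPM.

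The enzymes that build the chains moved both ways. For the linker and heparan sulfate, 6 of 23 genes rose and 9 fell (median -0.01). EXTL3, which starts heparan sulfate, fell from 53.8 ± 2.32 to 28.02 ± 2.29 CPM and the N-sulfating NDST4 from 2.88 ± 0.156 to 0.634 ± 0.227 CPM, while the 3-O-sulfating HS3ST3B1 rose from 31.9 ± 1.56 to 58.9 ± 4.34 CPM. For chondroitin and dermatan sulfate, 5 of 15 rose and 5 fell (median 0.03). CSGALNACT1, which starts chondroitin sulfate, fell from 39.8 ± 1.52 to 16.4 ± 2.32 CPM (log2 change -1.24) and CHST14, which sulfates dermatan, from 45.1 ± 1.74 to 25.4 ± 3.19 CPM, while the uronyl sulfating UST rose from 16.7 ± 1.47 to 30.7 ± 2.65 CPM. In the supply of sulfate, 2 of 7 rose and 4 fell (median -0.21). PAPSS1, which makes the sulfate donor, fell from 117 ± 1.04 to 72.4 ± 2.51 CPM and its Golgi transporter SLC35B2 from 79.1 ± 2.59 to 53.7 ± 2.87 CPM, while the phosphatase IMPAD1, which clears the used donor, rose from 183 ± 3.23 to 291 ± 9.27 CPM.

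Genes that edit or degrade sulfated chains were lower in 6 of 11 and higher in 3 (median -0.31). SULF2, which removes 6-O-sulfate from heparan sulfate outside the cell, fell from 459.9 ± 5.74 to 219.8 ± 17.5 CPM (log2 change -1.07, limma adjusted p = 8.75e-06). The lysosomal enzyme HGSNAT fell from 149 ± 6.01 to 74.2 ± 4.69 CPM. In the list of core protein shedding and versican cleavage, 3 of 11 genes rose and 3 fell (median 0.02). The list holds proteases and the protease inhibitor TIMP3, which is counted among those that rose. TIMP3, named here after its values were seen, rose from 92.0 ± 4.25 to 111 ± 4.98 CPM. ADAMTS1, a versican-cleaving protease, rose from 53.0 ± 1.43 to 229.5 ± 10.1 CPM (log2 change 2.09, limma adjusted p = 3.03e-07). ADAM17, a sheddase of syndecans and CD44, rose from 83.4 ± 3.29 to 117 ± 8.01 CPM, and the membrane protease MMP14 fell from 81.8 ± 3.19 to 45.0 ± 2.56 CPM.

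Of the cytoplasmic partners of syndecans 3 of 8 rose and 3 fell (median 0.14). SDCBP (syntenin), which binds the tail of all syndecans, rose from 337 ± 6.73 to 421 ± 27.9 CPM, and PDCD6IP (ALIX), its partner in exosome formation, fell slightly from 170.2 ± 2.67 to 158 ± 2.51 CPM. SDCBP2 rose from 0.907 ± 0.126 to 1.27 ± 0.137 CPM (log2 change 0.25, limma adjusted p = 0.0165) with overlap between the groups, at a level of few reads.

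**Figure D5:**
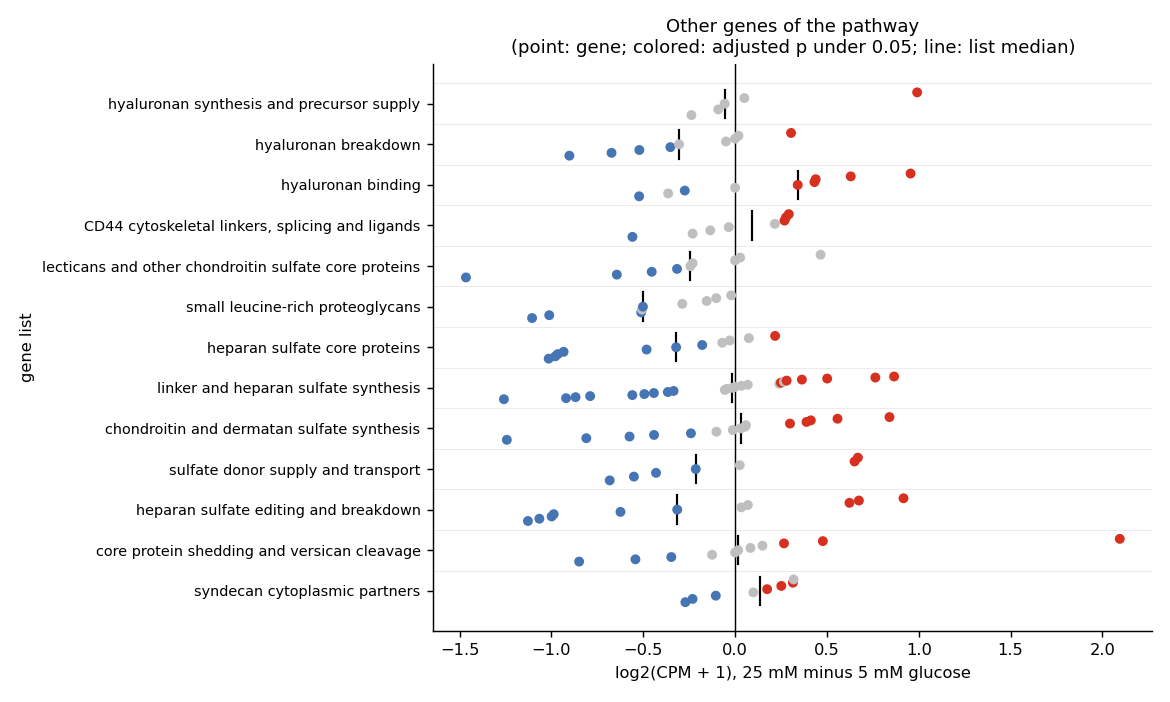
Log2 change from low to high glucose on the log2(CPM + 1) scale (horizontal axis) for each gene of the 13 pathway lists, with called genes in red (higher) or blue (lower), others in gray and a line at the median of the list. Called genes are mostly higher among hyaluronan-binding genes (5 of 7) and lower among heparan sulfate core proteins (7 of 8), and the point at the far right is ADAMTS1 (2.09).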

How the data were processed

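RNA of MDA-MB-157 cells, 4 low and 4 high glucose libraries grouped by the sample labels, was sequenced on Illumina HiSeq. The authors deposited 1 table of CPM, scaled with trimmed mean of M values factors from edgeR; the submitters' processing notes name edgeR and hg38. The methods describe TopHat and hg19 for the study's tumors. The counting tool, use of strand and annotation release for this table are not given in the sources used here. Of values below 200 reads, 72.2% to 74.0% were whole reads (within 0.01 read), so no count model was used. Of 21077 lines, 18 pseudoautosomal Y copies, identical to the X copies, were dropped. The remaining 21059 genes, 856 of them at 0 throughout, were tested.

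Values were analysed as log2(CPM + 1) with limma 3.58.1 in R 4.3.3 (lmFit, eBayes with a mean-variance trend, no covariate, 2-sided, Benjamini-Hochberg over all genes, threshold 0.05). Fold changes in the text are ratios of mean CPM, and log2 changes are on the log2(CPM + 1) scale. Differences between genes within a library were tested by an exact 2-sided permutation over 70 assignments. Positions and promoters are from RefSeq (GRCh38.p14). Transcript lengths and overlaps are from GENCODE. The code was tested on simulated data.

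The genes and lists were chosen with earlier results of these data known. Besides the 10 genes, the text names, in each pathway list, up to 3 genes with the smallest adjusted p and a mean of at least 1 CPM, and the 2 most abundant of each marker list. Of these, 2 genes that this rule selects are not reported here. Other genes are named as defining markers, by position or as stated. The 19 alternatives tried cover the pseudocount, a filter on low values, scaling, the replicate block, library weights, the variance trend, length and GC trends, and leaving out each library.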

Additional observations from a re-analysis of the deposited data

Results flagged for a closer look

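Of the 108 groups of 4 libraries examined, 5 held 1 library far from the others, with a gap over the group's range above Dixon's 95% critical value for 4 samples, and chance gives about 5.4. SDC1 in low glucose (0.863) had replicate 3 at 55.6 CPM against 50.1 to 50.9 CPM. SDC4 in low glucose (0.847) had replicate 1 at 59.3 CPM against 52.2 to 53.3 CPM. SDC2 in high glucose (0.935) had replicate 1, the library whose values went with transcript length, at 916 CPM against 801 to 808 CPM. ADAMTS1 in high glucose (0.836) had replicate 4 at 244 CPM against 222 to 226 CPM, and SDCBP2 in high glucose (0.877) had replicate 4 at 1.07 CPM against 1.32 to 1.36 CPM. In each of the first 4 cases the library apart was the highest of its group, and the groups of that gene did not overlap.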

How the results depend on the processing

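Over 19 alternatives, 183 of 189 values of the 10 genes, 728 of 735 values of the other named genes and 69 of 79 values of the ratios kept their direction and their side of the threshold. Between 9 and 10 of the 10 genes were called in each (9 of 9 with a mean of at least 5 CPM, which leaves out HAS3). The number of genes called was 8899 to 10156 when 1 library was left out. The replicate numbers did not pair the libraries (correlations of -0.04 to 0.07 between same-numbered libraries over 11297 genes); with the replicate block 8921 genes were called, and GPC1 was not (-0.37, adjusted p = 0.0751). GPC1 was also lost without low glucose replicates 2, 3 or 4 and high glucose replicate 2, and HAS2 with the GC trend removed; their values are given above. UGP2 reversed with quantile normalization (-0.071) and with the GC trend removed (-0.026). CSPG5 was called with quantile normalization (0.60), without the length trend (0.53) or GC trend (0.63) and without low glucose replicate 3 (0.58), and UGP2 without the length trend (0.12).

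With the length trend removed the ratio HAS3 minus HAS2 was 1.08 (exact permutation, adjusted p = 0.0714), BGN minus DCN 0.30 (0.143) and GPC1 minus SDC1 -0.76 (0.0714), none of them past the threshold. With a mean of at least 5 CPM, BGN minus DCN was 0.24 (0.0571) and GPC1 minus SDC1 -0.75 (0.0571). HAS3 minus HAS2, which shared their smallest exact permutation p of 0.0286, then dropped out of the adjustment. Passing the threshold thus depended on how many ratios shared that p. SDC4 minus SDC1 turned to -0.054 with the GC trend removed (adjusted p = 0.400). Leaving out 1 library gave 0.99 to 1.19 for HAS3 minus HAS2, 0.03 to 0.14 for SDC4 minus SDC1, 0.21 to 0.27 for BGN minus DCN, -0.18 to -0.11 for LUM minus DCN and -0.82 to -0.69 for GPC1 minus SDC1. Without low glucose replicate 1, HAS3 minus HAS2, BGN minus DCN and GPC1 minus SDC1 had adjusted p of 0.0714, 0.0952 and 0.0714, and without high glucose replicate 4 LUM minus DCN had 0.0357. With the length trend removed and without low glucose replicate 1, the 0.0714 arose because BGN minus DCN no longer shared the smallest exact p. Why the differences themselves moved was not tested. Ratios have no value under the block, the variance trend or library weights. Depth limits HAS3 and the list genes near 1 CPM.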
